A study of Mus musculus with 35 samples.

Results

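The comparison described here is that of untreated colon from Reg3a-transgenic and wild-type mice. It holds 10 of the 35 arrays of the series, chosen by title, with 5 mice of each genotype and 1 array per mouse. All mice carried the C57BL/6N background given in the labels, drank plain water without dextran sulfate sodium (DSS, an agent that injures the colon epithelium) and had their colons collected on day 12. The wild-type mice are called WT7, WT8, WT9, WT10 and WT11, and the transgenic mice TG26, TG28, TG29, TG31 and TG631. A label of these mice also speaks of a transfer of gut microbes, which the treatment protocol gives for the axenic mice alone. The labels give neither the species of the transgene nor the promoter that drives it, nor sex, age, litter, cage or hour of collection. Published descriptions of a line of this kind, which were not a source here, place human REG3A in hepatocytes. For reference the text also uses 10 conventional mice given 3% DSS in drinking water for 5 days, again 5 of each genotype. The remaining 15 mice were axenic and given DSS, in groups of 5 with wild-type flora, with flora of transgenic donors, or labelled as controls.

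Reg3 proteins are secreted C-type lectins of the gut and pancreas, and several of them bind and kill bacteria. The colon epithelium renews from crypts and holds absorptive colonocytes, goblet cells and endocrine cells, and its expression programme shifts from the proximal to the distal end. It also runs a circadian clock, in which CLOCK and ARNTL drive the Per, Cry and Nr1d genes, whose products close the loop, together with the output factors Dbp, Tef and Hlf. Bulk colon RNA mixes these cells with muscle, nerve and immune cells, so fewer cells of a type and less RNA per cell cannot be told apart.

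Values are log2 RMA signals of 1 probe set per gene for 19908 genes, so a difference of 1 is a 2-fold change. Median signal per array ran from 6.67 to 6.87 among the 10 arrays and the standard deviation within an array from 1.73 to 1.97. Arrays correlated at 0.962 to 0.991 within wild-type, 0.965 to 0.993 within transgenic and 0.946 to 0.993 between genotypes. Xist, which is transcribed in female cells, was between 11.2 and 11.9 in WT7, WT8, TG26 and TG631 and between 4.85 and 5.03 in the other 6 mice, so each genotype held 2 mice with it. Transcripts of pancreatic acinar cells were high in WT11, WT9 and TG631, and TG28 and TG31 were low in genes of the distal colon, as described further on. The genotypes are 1 transgenic line against 1 wild-type group, and nothing in the labels ties mice to litters.

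Untreated transgenic colon differed from wild-type in 15 of the 19908 genes (0.0753% of genes tested; limma, adjusted p under 0.05), of which 5 rose (0.0251%) and 10 fell (0.0502%). The rises were Nxpe5, Hsd17b13, Cox18, Entpd4 and Afm, and the falls were Dbp, Kyat1, Nnt, Usp2, Per2, Rdh18-ps, Tef, Zfyve21, Camk2b and Klc1. Of the 15, 8 changed by 2-fold or more, and in all 15 the 5 mice of one genotype lay above the 5 of the other, which was so for 1.12% of all genes. Nxpe5, Nnt, Per2 and Hsd17b13 were called under all 25 alternative settings that were run. The other 11 were each called in 8 to 18 of the alternatives. The count was 4 without WT7, WT8, TG28 or TG631, 5 without WT10, WT11 or TG31, 8 without TG29, 13 without TG26 and 20 without WT9. It was 4 with the mean posterior Hox level as a covariate and 4 without both TG28 and TG31. That Hox level itself averaged 7.22 in wild-type and 6.75 in transgenic mice. Adjusting for it can thus remove part of a genotype difference. At an unadjusted p under 0.05 there were 996 genes (5.0%), 343 higher (1.72%) and 653 lower (3.28%) in transgenic mice. The median difference over all genes was 0.01, with 10620 genes higher and 9288 lower in transgenic mice.

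**Figure D1:**
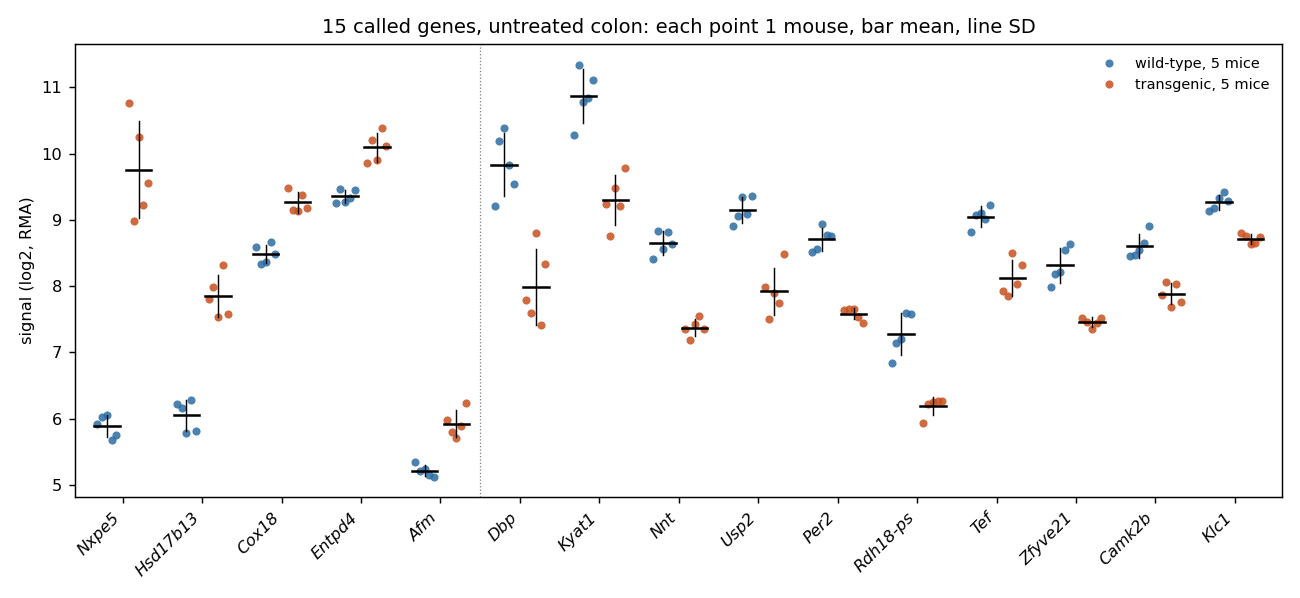
Signal (log2 RMA, vertical axis) of the 15 called genes (horizontal axis) in untreated colon, with 1 point per mouse, a bar at the mean and a line of 1 SD either side, 5 wild-type and 5 transgenic mice per gene. The genotypes do not overlap in any of the 15, and Nxpe5 has the widest gap, with means of 5.89 and 9.76.

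Nxpe5, a member of the neurexophilin and PC-esterase domain family, had the largest difference in the gene table. Its signal was 6.06, 6.03, 5.92, 5.75 and 5.68 in WT7, WT8, WT9, WT10 and WT11. It was 9.56, 9.23, 10.25, 8.99 and 10.76 in TG26, TG28, TG29, TG31 and TG631. The means were 5.89 ± 0.17 and 9.76 ± 0.73 (SD, n = 5 each), and Nxpe5 rose by 3.87 (SE 0.29), or 14.6-fold, with an adjusted p of 0.00038 in limma. The transgenic mice spread more widely than the wild-type mice, and the lowest of them, TG31, was above the highest wild-type mouse. The family relative Nxpe2 read -0.60 (adjusted p = 0.987), and none of the other 6 measured genes of the mucosal pentraxin and Nxpe list was called.

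Hsd17b13, a lipid droplet protein of the 17-beta-hydroxysteroid dehydrogenase family, was 5.79, 6.17, 6.22, 5.81 and 6.28 in the wild-type mice in the same order. In the transgenic mice it was 7.59, 8.32, 7.54, 7.98 and 7.81, all above every wild-type value. The rise was 1.79 (SE 0.16), or 3.47-fold (limma adjusted p = 0.000681). Afm, the gene of afamin, a vitamin E binding plasma protein, lay near the lower end of the signal range, at 5.12 to 5.35 in wild-type and 5.71 to 6.23 in transgenic mice, and rose by 0.71 (SE 0.10, adjusted p = 0.0339). Hsd17b13 and Afm are best known from liver, so the levels of the liver genes beside Afm are given. Alb, which encodes albumin, differed by 0.04 (SE 0.12) and Afp, alpha-fetoprotein, by -0.03 (SE 0.11), with adjusted p of 0.991 for both.

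Cox18, which helps to assemble cytochrome c oxidase in mitochondria, was 8.34 to 8.66 in wild-type and 9.13 to 9.48 in transgenic mice. It rose by 0.78 (SE 0.10, adjusted p = 0.0225), although none of the 25 genes of the oxidative phosphorylation list was called and their median difference was -0.05. Of the 5 genes that rose, 4 (Nxpe5, Hsd17b13, Cox18 and Afm) are on chromosome 5, which holds 1138 of the genes tested. Cox18 and Afm are separated by 4 measured genes, Ankrd17, Gm9958, Alb and Afp, none of which was called (differences of -0.14, 0.20, 0.04 and -0.03). The genotypes did not overlap in 21 genes of chromosome 5, or 1.85%, against 1.12% of all genes and 1.73% on each of chromosomes 7 and 11. Entpd4, on chromosome 14, encodes a Golgi nucleotidase and has a close copy, Entpd4b, so the locus behind its signal is uncertain. It was 9.26 to 9.47 in wild-type and 9.86 to 10.39 in transgenic mice and rose by 0.74 (SE 0.11, adjusted p = 0.0374), a call that was lost on leaving out any 1 mouse.

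Nnt, the mitochondrial nicotinamide nucleotide transhydrogenase that makes NADPH from NADH, fell by 1.28 (SE 0.10), or 2.43-fold (limma adjusted p = 0.000477). Wild-type mice WT7 to WT11 were at 8.56, 8.84, 8.41, 8.64 and 8.81. Transgenic mice were at 7.35, 7.55, 7.43, 7.19 and 7.35. Every transgenic value was below the lowest wild-type value. As background, Nnt carries a well-known deletion in the C57BL/6J substrain and is intact in C57BL/6N. The labels give C57BL/6N for both genotypes, and the substrain was not tested.

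Kyat1, a kynurenine aminotransferase that also cleaves cysteine conjugates, was 10.28 to 11.34 in wild-type and 8.76 to 9.78 in transgenic mice. It fell by 1.58 (SE 0.21, adjusted p = 0.0262). Camk2b, the beta subunit of calcium/calmodulin-dependent kinase II, fell by 0.72 (SE 0.11, adjusted p = 0.0414), from 8.46 to 8.90 in wild-type down to 7.69 to 8.06. Rdh18-ps, a retinol dehydrogenase pseudogene among close paralogs, fell by 1.08 (SE 0.14, adjusted p = 0.0262). Which of the copies its probe set reads is uncertain. Zfyve21, an endosome and focal adhesion protein, fell by 0.85 (SE 0.12, adjusted p = 0.0339). Klc1, a light chain of the motor protein kinesin, fell by 0.55 (SE 0.08, adjusted p = 0.0345). Klc1 and Zfyve21 lie on chromosome 12 with 1 measured gene between them, Xrcc3, which read 0.07 (adjusted p = 0.991). Chromosome 12 held 13 genes whose genotypes did not overlap, or 1.99% of its 652 genes, against the same 1.12% overall. Of these 6 falls, each lost its call on leaving out some mice except Nnt, which kept it in all 10 such fits.

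Set across the 7 groups of the series, the called genes took different patterns. Nxpe5 was high in the conventional transgenic groups alone, with 9.76 ± 0.73 untreated (SD, n = 5) and 9.75 or more in each of the 5 mice given DSS, against means of 5.89 to 6.65 in the other 5 groups. Entpd4 was likewise highest in those transgenic groups, at 10.1 ± 0.22 and 9.91 ± 0.19, against 8.77 to 9.47 elsewhere. Nnt was high in the conventional wild-type groups, at 8.65 ± 0.18 untreated and 8.24 ± 0.22 with DSS, while both transgenic groups (7.37 and 7.35) and the 3 axenic groups (6.94 to 7.37) were low. Camk2b had the same order of high and low groups, at 8.61 and 8.51 in conventional wild-type mice and at 7.71 to 7.96 in the other 5 groups. Per2 was high in untreated wild-type mice alone, at 8.71 ± 0.17, and its mean was 7.58 to 7.75 in every other group, those with DSS and the axenic ones included. Dbp was 9.83 ± 0.48 in untreated wild-type mice and 7.25 to 8.15 in the other 6 groups. No test was made across all 7 groups.

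**Figure D2:**
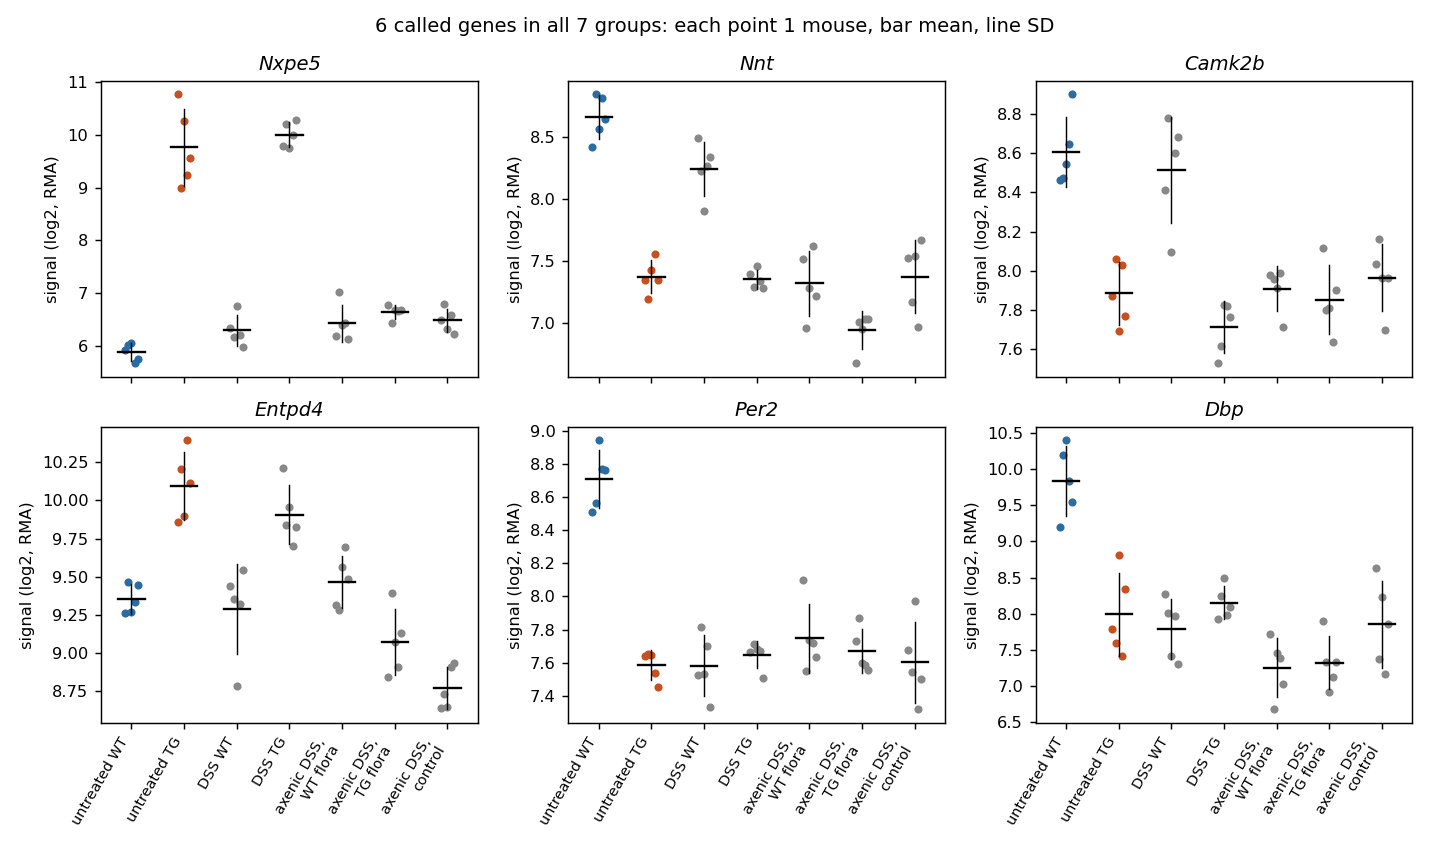
Signal (log2 RMA, vertical axes) of 6 called genes in all 7 groups of 5 mice, 1 point per mouse, with a bar at the mean and a line of 1 SD either side; untreated wild-type is blue, untreated transgenic orange and the other groups grey. Nxpe5 and Entpd4 are high in both conventional transgenic groups, Nnt and Camk2b in both conventional wild-type groups, and Per2 and Dbp in untreated wild-type mice.

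Clock genes were the group with the most calls. Of 13 measured genes of the core loop 1 fell (Per2) and none rose, and of 13 measured output factors 3 fell (Dbp, Tef and Usp2), against 0.0502% of all genes called lower. Per2 kept its call in all 10 fits that left out 1 mouse, whereas Tef kept it in 3, and Usp2 and Dbp in 2 each. With the posterior Hox covariate Per2 was called and the other 3 were not (adjusted p of 0.208 for Usp2, 0.174 for Tef and 0.244 for Dbp). At an unadjusted p under 0.05, 6 core genes and 11 output genes were lower and 1 core gene (Arntl) was higher. The shares over all genes at that p were 3.28% lower and 1.72% higher. The median difference was -0.21 in the core loop and -0.52 among the outputs, against 0.01 over all genes. The mean level of the output list was 7.77 to 8.20 in the wild-type mice and 7.13 to 7.53 in the transgenic mice, without overlap.

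The windows around the RefSeq transcription starts (GRCm38.p6, 250 bases before to 50 after) of 3 of these genes are shown because they hold the letters through which clock factors are known to act. CLOCK with ARNTL binds the E-box CACGTG, and DBP, TEF and HLF bind the D-box TTANGTAA. Capitals mark the matches, which are a description of the letters and not of binding. Ciart, at chr3:95882179-95882478 on the minus strand, has E-boxes beginning 116, 58 and 44 bases before the start. Tef, at chr15:81802423-81802722 on the plus strand (the first of 2 listed starts), has 1 beginning 127 bases before. Per3, at chr4:151044616-151044915 on the minus strand, has D-boxes beginning 205 and 158 bases before.
Ciart: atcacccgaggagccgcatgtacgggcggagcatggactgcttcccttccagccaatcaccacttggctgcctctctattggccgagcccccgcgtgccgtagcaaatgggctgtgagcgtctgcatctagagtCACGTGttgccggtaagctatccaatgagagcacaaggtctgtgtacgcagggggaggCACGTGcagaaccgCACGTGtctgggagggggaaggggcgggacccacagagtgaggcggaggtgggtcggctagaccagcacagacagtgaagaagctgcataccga
Tef: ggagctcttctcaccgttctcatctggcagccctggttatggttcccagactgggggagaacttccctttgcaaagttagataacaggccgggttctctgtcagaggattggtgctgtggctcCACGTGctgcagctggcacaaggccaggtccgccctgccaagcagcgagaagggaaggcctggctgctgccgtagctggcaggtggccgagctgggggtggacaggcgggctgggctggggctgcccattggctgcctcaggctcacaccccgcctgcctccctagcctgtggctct
Per3: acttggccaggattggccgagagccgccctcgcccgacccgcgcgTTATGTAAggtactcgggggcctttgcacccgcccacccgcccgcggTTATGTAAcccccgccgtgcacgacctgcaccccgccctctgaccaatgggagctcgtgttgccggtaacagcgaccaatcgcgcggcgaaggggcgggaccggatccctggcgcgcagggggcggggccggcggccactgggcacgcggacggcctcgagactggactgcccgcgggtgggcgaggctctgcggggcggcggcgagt
Both motifs were searched on both strands in all listed promoters, and none of the 3 windows holds both. Of 32851 listed promoters 7.15% held CACGTG and 2.32% held TTANGTAA or its reverse complement. Of the 26 measured clock genes 22 have a listed promoter, 7 with an E-box and 2 with a D-box. A gene was counted if any of its listed starts held the motif, whereas both shares are per listed promoter. The 7 are Tef, Ciart, Per1, Tspan4, Bhlhe41, Lonrf3 and Cry1. Of these, Lonrf3 and Cry1 differed by only -0.17 and -0.03 between genotypes. Of the 3 genes shown only Tef was called. Per2 is not among the entries, and for Dbp and Usp2 the window holds neither run of letters.

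Per2, a repressor in the core loop, was 8.94, 8.56, 8.51, 8.76 and 8.77 in WT7 to WT11. It was 7.45, 7.54, 7.65, 7.65 and 7.64 in TG26, TG28, TG29, TG31 and TG631. The transgenic mice lay close together, with an SD of 0.09, and Per2 fell by 1.12 (SE 0.10), or 2.18-fold (limma adjusted p = 0.000575). Dbp, a PAR bZIP output factor driven by the clock, was 10.39, 10.19, 9.20, 9.55 and 9.83 in wild-type mice. It was 8.34, 7.42, 8.81, 7.60 and 7.79 in transgenic mice, with the gap between the groups at its narrowest between WT9 and TG29. Dbp fell by 1.84 (SE 0.28), or 3.59-fold (adjusted p = 0.0469). Tef, of the same family, was 8.81 to 9.23 in wild-type and 7.85 to 8.50 in transgenic mice and fell by 0.92 (SE 0.13, adjusted p = 0.0339). Usp2, a deubiquitinase under clock control, was 8.90 to 9.36 and 7.51 to 8.48 and fell by 1.23 (SE 0.17, adjusted p = 0.0262).

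Several further clock genes separated the genotypes without being called. Ciart, a repressor of CLOCK and ARNTL, was 9.37, 8.64, 8.33, 7.86 and 8.04 in wild-type and 7.47, 5.82, 6.64, 6.30 and 6.44 in transgenic mice, a difference of -1.91 (SE 0.32, adjusted p = 0.0894). Per3 was 7.85 to 8.82 and 7.03 to 7.70, a difference of -1.07 (adjusted p = 0.136). Cry2 differed by -0.89 (adjusted p = 0.387), Hlf by -0.43 (adjusted p = 0.353) and Tspan4 by -0.59 (adjusted p = 0.136), each without overlap. Per1 differed by -0.99 and Nr1d2 by -0.74, with adjusted p of 0.706 and 0.701. Per1 overlapped because TG26 was at 8.68, between the wild-type mice. Arntl, the activator whose phase is opposite to that of Per2 in a running clock, differed by 0.67 in the other direction (SE 0.19, adjusted p = 0.678), from 6.32 to 7.18 in wild-type and 6.99 to 7.91 in transgenic mice. Clock, Cry1 and Nr1d1 differed by 0.11, -0.03 and -0.21 (adjusted p of 0.987 or more). The hour at which each mouse was collected is not in the labels, and its part in these differences was not tested.

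**Figure D3:**
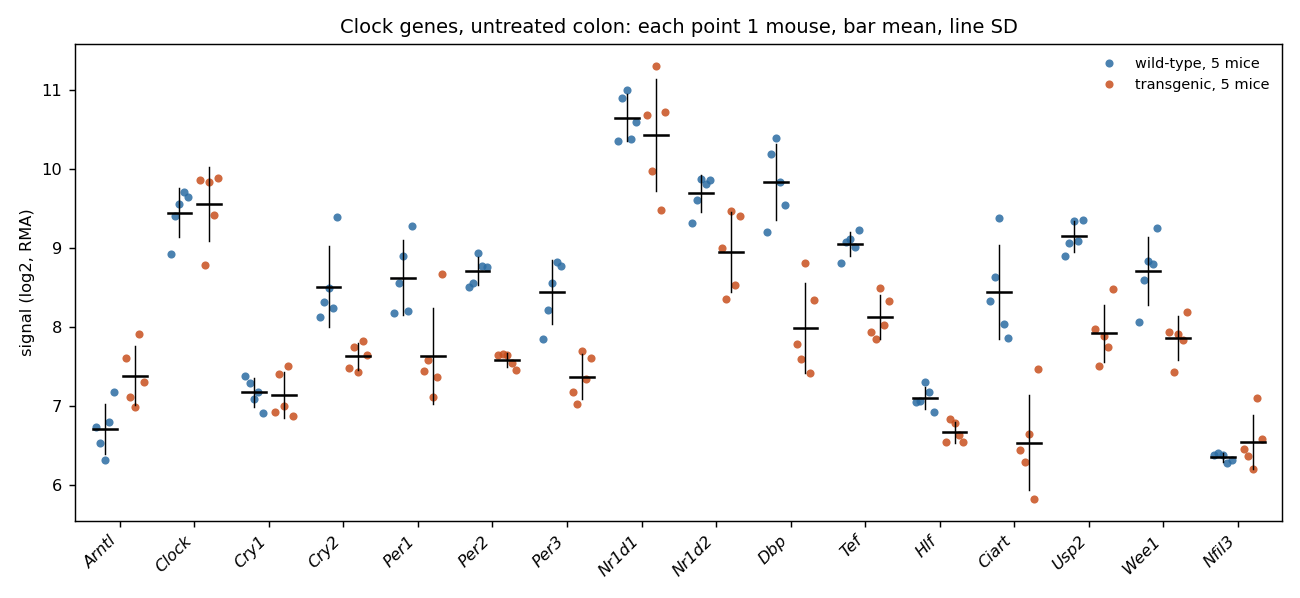
Signal (log2 RMA, vertical axis) of 16 clock genes (horizontal axis) in untreated colon, 1 point per mouse, bar at the mean and line of 1 SD either side. Per2, Per3, Dbp, Tef, Ciart and Usp2 are lower in all 5 transgenic than in all 5 wild-type mice, Arntl leans the other way, and Clock, Cry1 and Nr1d1 overlap.

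The genes most like Per2 were sought over the 25 arrays outside this comparison. The 5 with the highest Pearson correlation were Usp2 (0.62), Ccnjl (0.62), Ahdc1 (0.57), Slc25a34 (0.55) and Osgin1 (0.55). These arrays share DSS treatment and group structure, and the correlations are a description. In the untreated comparison Usp2 is the called gene among them, and the other 4 differed by -0.12 to -0.26 with adjusted p from 0.856 to 0.987.

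Probe sets that carry several gene symbols or none fall outside the gene table, and were tested after the data had been seen, with p adjusted over all 28090 probe sets. Of these 32 were called, 17 of them outside the gene table. Some of the 17 report identical values, so they hold 12 distinct series of values. The largest was a signal that 4 probe sets without an annotated gene report with identical values, so it is 1 measurement. It was 11.06 to 11.82 in the 5 wild-type mice and 7.01 to 7.63 in the 5 transgenic mice, and it fell by 4.24 (SE 0.16), or 18.9-fold (limma adjusted p = 2.28e-07). In mice given DSS it was 11.79 ± 0.18 in wild-type and 7.96 ± 0.63 in transgenic colon (SD, n = 5 each), and in the 3 axenic groups its mean was 8.81 to 9.35. A second unlisted probe set was 5.22 to 6.92 in wild-type and 4.36 to 4.45 in transgenic mice and fell by 1.77 (SE 0.27, adjusted p = 0.0375). Probe sets shared by Tmem254a, Tmem254b and Tmem254c, near-identical copies of a transmembrane protein gene, rose by 1.43 to 1.46 (adjusted p from 0.002 to 0.00247). In the first of them wild-type mice were at 9.51 to 10.16 and transgenic mice at 11.01 to 11.51. Those shared by Plac9a, Plac9b and Gm9780 rose by 1.11 to 1.13, and those shared by Duxbl1 and Duxbl2 by 1.00 to 1.18. The first Tmem254 set had means of 10.53 to 11.28 in the axenic groups. In mice given DSS it was 8.66 to 10.05 in wild-type and 11.08 to 11.35 in transgenic colon. The Plac9 set that rose by 1.11 was 7.17 to 7.52 and 8.12 to 8.49 there. The Duxbl signal that rose by 1.18 overlapped with DSS, at 5.09 to 5.85 and 5.48 to 6.60. These values with DSS were not tested. Which of the copies each signal comes from is uncertain. The 3 probe sets shared by Gsta1, Gsta2, Gm3776 and Gm10639, glutathione transferases of the alpha class, fell by 0.80 to 1.27 (adjusted p from 0.0181 to 0.0341).

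Enzymes of xenobiotic and glutathione metabolism had 35 measured members in the gene table. None was called, 27 were lower and 8 higher, and the median difference was -0.34 against 0.01 over all genes. At an unadjusted p under 0.05, 13 were lower and 1 higher, against 3.28% and 1.72% of all genes. Gsta3, another alpha-class transferase, was at 7.85 or more in every wild-type mouse and at 6.74 to 7.83 in transgenic mice (difference -1.12, adjusted p = 0.342). Gstm1 and the carbonyl reductase gene Cbr2 differed by -0.46 and -0.59 without overlap (adjusted p of 0.374 and 0.315). Cyp2c55, a colon cytochrome P450, went the other way, at 10.21 to 11.69 in wild-type and 11.99 to 12.36 in transgenic mice (difference 1.20, SE 0.23, adjusted p = 0.176).

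Genes of the distal colon tended to be lower in transgenic mice, with no member called of 18 measured (13 lower, median -0.24). At an unadjusted p under 0.05, 8 were lower and 1 higher, against 3.28% and 1.72% of all genes. Cbr2, named among the xenobiotic enzymes, is in this list too. Atp12a, a colonic proton and potassium pump, was 10.26, 10.37, 9.50, 10.32 and 9.83 in WT7 to WT11 and 9.21, 6.60, 8.56, 6.41 and 8.77 in TG26, TG28, TG29, TG31 and TG631. The groups did not overlap, but TG28 and TG31 were well below the other 3 transgenic mice (difference -2.15, SE 0.51, adjusted p = 0.387). Scnn1g, a subunit of the epithelial sodium channel, differed by -1.52 without overlap (adjusted p = 0.605). Hoxb13, which marks the posterior end of the gut, was 10.33 to 11.41 in wild-type mice, 10.57, 10.42 and 10.43 in TG26, TG29 and TG631, and 8.89 and 8.53 in TG28 and TG31 (difference -1.22, adjusted p = 0.828). The 10 posterior Hox genes had a median of -0.35, with 7 lower and none called. Not all of them set TG28 and TG31 apart as Hoxb13 did. Hoxd13 was 5.78 and 5.94 in that pair, but also 6.16 in WT9 and 6.23 in TG631, and 6.81 to 8.77 in the rest. Hoxd11 was 6.43 and 6.32 in the pair, 6.42 in WT9 and 6.51 in TG631.

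As in Hoxb13 and Atp12a, TG28 and TG31 stood apart from the other 8 mice in some further genes. Plet1, a surface protein of immature epithelium, was 11.30 and 11.14 in them and at most 8.97 in the rest. Fabp2, the intestinal fatty acid binding protein of the small bowel and proximal colon, was 11.62 and 11.04 against 6.29 to 9.21. Slc15a1, also in the list of proximal colon genes, went the other way, at 10.01 and 9.22 against 10.48 to 12.05. Of the 17 measured genes of that list 8 were higher and 9 lower in transgenic mice, with a median of -0.02. Cyp2f2 was 7.68 and 7.19 against 9.57 to 10.51, and Mptx1, a mucosal pentraxin, was 10.78 and 9.69 against 11.99 to 12.65. Reg4 was 9.83 and 8.45 against 11.66 to 12.45. None of these genes was called. Nxpe5, Hsd17b13, Nnt and Per2 were called with and without this pair, and the position along the colon from which each sample was cut is not in the labels.

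**Figure D4:**
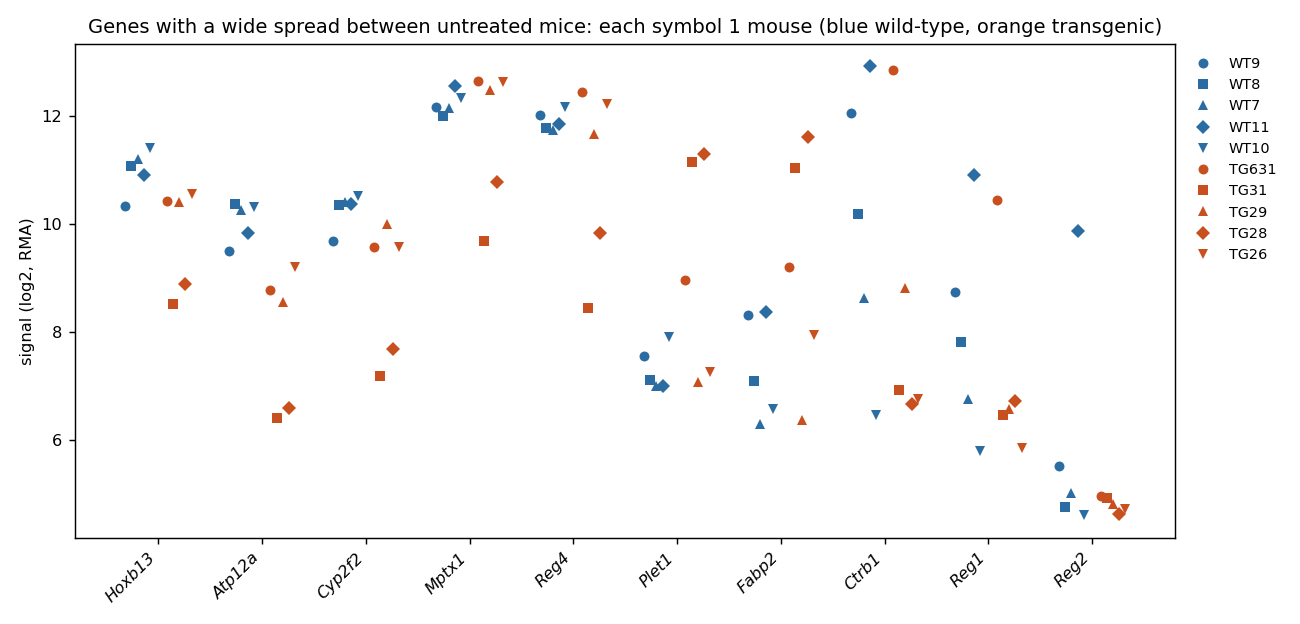
Signal (log2 RMA, vertical axis) of 10 genes (horizontal axis) in each untreated mouse, wild-type in blue and transgenic in orange with 1 symbol per mouse. TG28 and TG31 are low in Hoxb13, Atp12a, Cyp2f2, Mptx1 and Reg4 and high in Plet1 and Fabp2; WT11, WT9 and TG631 are high in the pancreatic gene Ctrb1.

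No gene of the Reg family was called of 7 measured. Mouse Reg3a was near the bottom of the scale, at 5.08 to 5.58 in wild-type and 5.08 to 5.24 in transgenic mice (difference -0.10, 95% interval -0.32 to 0.12). Whether its probe set reads a transgene of another species is not known from the files, so this level checks nothing about the labels. Reg3b and Reg3g, the lectins that the gut makes against bacteria, differed by -0.11 (95% interval -0.92 to 0.71) and 0.34 (-0.28 to 0.96). Reg1 was 10.91 in WT11 and 10.45 in TG631 and 5.79 to 8.74 in the others, and Reg2 was 9.88 in WT11 and 4.61 to 5.52 in the other 9 mice. These are pancreatic genes, and the chymotrypsinogen gene Ctrb1 was 12.92 in WT11, 12.85 in TG631, 12.05 in WT9 and 6.47 to 10.18 elsewhere. Of 20 acinar genes 18 were lower in transgenic mice, with a median of -0.79 and none called. At an unadjusted p under 0.05, 1 was lower, against 3.28% of all genes. The mean of the acinar genes ran from 7.32 to 11.31 in wild-type and from 7.41 to 11.01 in transgenic mice. With that mean as a covariate 9 of the 15 genes kept their call and no other gene was called.

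Among genes of innate defence and the acute phase none was called. Saa1, an acute-phase apolipoprotein also made by colon epithelium, was 8.70, 9.54, 8.98, 9.03 and 9.15 in wild-type and 8.51, 7.80, 8.06, 7.68 and 7.96 in transgenic mice, without overlap (difference -1.08, SE 0.18, adjusted p = 0.0753). Wfdc2, a secreted protease inhibitor of the whey acidic protein family, differed by -0.77 (adjusted p = 0.387) and the chitinase-like Chil3 by -0.41 (adjusted p = 0.427), each without overlap. Chil3 lay near the lower end of the signal range, at 4.91 to 5.25 in wild-type and 4.42 to 4.87 in transgenic mice. Cd14, the lipopolysaccharide co-receptor of macrophages, differed by -0.55 and Csf1r by -0.30 (adjusted p of 0.867 and 0.898). Of 15 macrophage genes 9 were lower, of 17 neutrophil genes 11 were higher, and none of either was called. At an unadjusted p under 0.05, 4 macrophage genes and 1 neutrophil gene were lower and none was higher. The shares over all genes were 3.28% lower and 1.72% higher. Lcn2 read 8.61 in WT10 and 6.56 to 7.19 in the other 9 mice.

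Antigen presentation and lymphocyte genes leaned upward without a call. All 12 measured genes of the MHC class II list and all 12 of the B cell list were higher in transgenic mice, with medians of 0.21 and 0.28, and 18 of 20 T and NK cell genes were higher with a median of 0.08. H2-Ab1, a class II chain, was 7.82 to 9.01 in wild-type and 8.57 to 9.69 in transgenic mice (difference 0.66, adjusted p = 0.913). The genes of a list that come from 1 cell type move together between samples, so their shared direction is not a count of independent results. Cell cycle genes were higher in 23 of 26 (median 0.21), led by Bub1, a mitotic checkpoint kinase, at 5.32 to 5.53 and 5.64 to 5.85 (adjusted p = 0.408). Mki67 differed by 0.72 (adjusted p = 0.725).

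Epithelial identity genes gave single members without a call. Agr2, a disulfide isomerase of goblet cells, was 12.39 to 12.60 in wild-type and 12.70 to 13.29 in transgenic mice (difference 0.56, adjusted p = 0.29), while the 19 goblet genes had a median of 0.07. Cldn4, a tight junction claudin, differed by 0.83 (adjusted p = 0.387) and Hao2, a peroxisomal oxidase, by 0.68 (adjusted p = 0.374), both without overlap. Sprr1a, a cornified envelope protein seen in wounded epithelium, differed by 0.81 (adjusted p = 0.374). Among absorptive colonocyte genes Slc26a3, the chloride and bicarbonate exchanger, differed by -0.62 (adjusted p = 0.706), and the 29 measured members had a median of 0.06. Targets of glucocorticoid hormone were lower in 13 of 14, with a median of -0.36. At an unadjusted p under 0.05, 6 were lower, against 3.28% of all genes. Per1 and Tsc22d3 are among the 6 and are counted in the clock lists too. Fkbp5 and Zbtb16, both in the glucocorticoid list, were highest in 1 mouse, WT10, at 10.22 and 10.18. The other 4 wild-type mice were at 8.59 to 8.82 in Fkbp5 and 8.80 to 9.08 in Zbtb16, within or near the transgenic range (7.56 to 8.68 and 7.80 to 8.86). Smooth muscle, enteric nerve, fibroblast and endothelial lists had medians between -0.06 and 0.08 and no member called.

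The same genotype contrast in mice given DSS used 10 other animals. There 1 gene was called (0.00502%), Nxpe5, at 3.70 (SE 0.16, limma adjusted p = 2e-06), 1030 genes had an unadjusted p under 0.05 (5.17%) and 313 did not overlap between genotypes (1.57%). The count of calls there was 339 with array weights, 11 without wild-type mouse WT55, 4 without transgenic mouse TG49 and 2 without wild-type mouse WT65. Of the 15 genes called in untreated colon, 9 had the same sign with DSS, and 6 of these had an unadjusted p under 0.05 there (Nxpe5, Nnt, Hsd17b13, Afm, Entpd4 and Camk2b). A further 2, Kyat1 (0.77) and Usp2 (0.25), had such a p in the opposite direction. In 5 genes the genotypes were separate both with and without DSS. Those 5 were Nxpe5, Nnt (-0.89, SE 0.11), Hsd17b13 (0.69, SE 0.15), Entpd4 (0.62, SE 0.15) and Camk2b (-0.81, SE 0.13), with adjusted p of 0.0622, 0.29, 0.31 and 0.13 for the last 4. No clock gene was called there. Per2 read 0.07 (SE 0.10), Tef 0.04 (SE 0.10), Ciart 0.12 (SE 0.12), Dbp 0.36 (SE 0.19) and Usp2 0.25 (SE 0.10), the last with an adjusted p of 0.82. Tspan4 and Noct still read lower, at -0.46 and -0.24. An unadjusted p under 0.05 was reached by 4 of the core loop, all of them higher in transgenic mice given DSS. They were Per3 at 0.57, Nr1d1 at 0.86, Nr1d2 at 0.54 and Cry2 at 0.39, with adjusted p of 0.31, 0.417, 0.794 and 0.683.

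A test of the difference between both genotype effects called 31 genes (0.156%), 6 of them from the clock lists. They are Per2 (1.19 more with DSS, SE 0.13, adjusted p = 0.000646), Usp2 (1.48, adjusted p = 0.00406), Per3 (1.65, adjusted p = 0.0131), Dbp (2.20, adjusted p = 0.0228), Tef (0.96, adjusted p = 0.0228) and Ciart (2.03, adjusted p = 0.034). Kyat1 (2.35, adjusted p = 0.0227), Cbr2 (1.84), Gsta3 (1.93), Gstm1 (1.34) and Wfdc2 (1.66) were called as well, and these 5 were lower in untreated transgenic mice and higher in transgenic mice given DSS. Of all 31 called genes 30 were lower in untreated transgenic mice. For Nxpe5, Entpd4 and Camk2b the effects differed by -0.17 (SE 0.35), -0.12 (SE 0.19) and -0.08 (SE 0.17), with adjusted p of 0.946, 0.933 and 0.946. Hsd17b13 had the larger effect without DSS (difference -1.10, SE 0.23, adjusted p = 0.0645). With the posterior Hox covariate this limma test called 0 genes, with 712 at an unadjusted p under 0.05. The posterior Hox genes themselves had a median genotype difference of -0.35 in untreated mice and 0.11 in mice given DSS. Adjusting for their mean can thus remove part of the effect under test. Why the calls were lost was not tested.

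**Figure D5:**
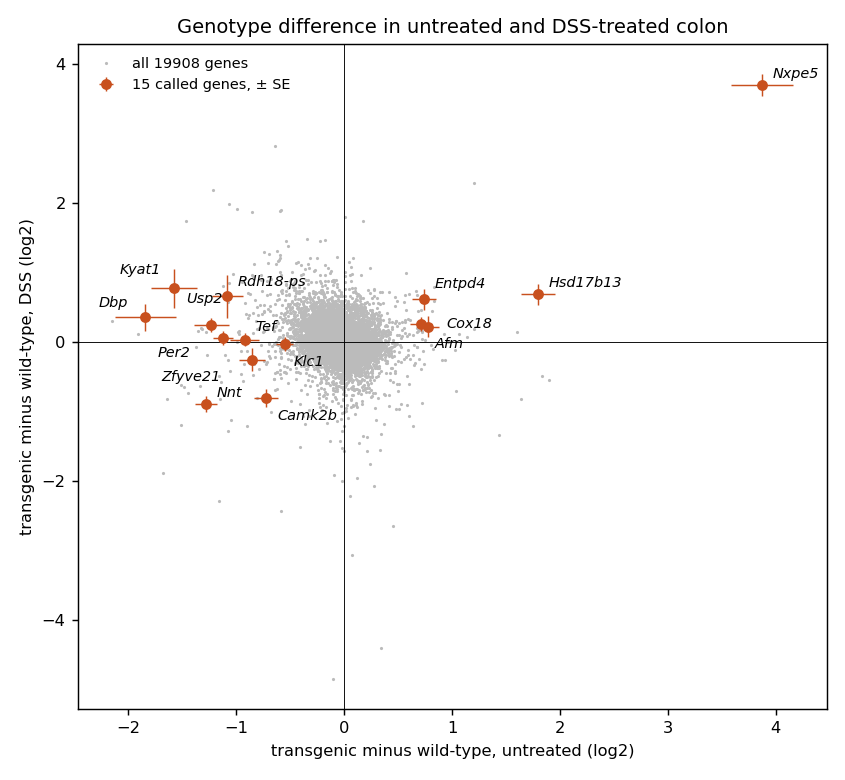
Transgenic minus wild-type difference (log2) in untreated colon (horizontal axis) against that in DSS-treated colon (vertical axis), 10 different mice on each axis, for 19908 genes in grey and the 15 called genes in orange with bars of 1 SE. Nxpe5 lies near 3.87 and 3.70, and Nnt and Camk2b are negative on both axes. Per2 and Tef lie near 0 on the vertical axis, and Usp2 lies at 0.25.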

How the data were processed

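RNA of each colon, 200 ng per the labels' protocols, was measured on 1 Mouse Gene 1.0 ST array (Affymetrix). Per the submitters' processing notes and the labels, the authors summarised probes by RMA with Affymetrix Expression Console 1.1. What they deposited is a log2 signal per probe set, between 3.78 and 14.4. Of 28090 probe sets 21639 had 1 gene symbol, 1539 several and 4912 were not listed. Each of 19908 genes was represented by its probe set with the highest mean over all 35 arrays. A GRCm38.p6 gene table, matched to 21548 probe sets, gave names and neighbours only. RefSeq promoters came from the same build.

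The 10 arrays were compared in limma 3.58.1 (R 4.3.3), two-sided, adjusted over all genes by the Benjamini-Hochberg method, with 0.05 as the limit for a call. SE is limma's moderated standard error, SD the spread over mice, and the number of arrays limits the precision. Since no label says how mice were housed or bred, p-values measure the spread between these mice only. Members and the 49 gene lists (786 of 864 genes measured) were chosen with earlier results of these data known. Named genes were called genes, up to 4 of smallest p per list, the Reg and clock genes and a few fixed markers. Gm9958, Ankrd17, Alb, Afp and Xrcc3, and genes of the shared or unlisted probe sets, were chosen after their values were seen. Calls were tested on simulated data. Alternatives were array weights, more arrays in the model, a trended robust variance, quantile normalization, 5 covariates, other probe set rules, a signal filter and leaving out mice. Tables used Python 3.11.15 with numpy 2.4.6 and pandas 2.3.3.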

Additional observations from a re-analysis of the deposited data

Results flagged for a closer look

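In 13 of 190 sets of 5 mice checked (95 genes in each genotype) 1 mouse lay farther from the others than Dixon's 95% limit, which chance gives in about 1 of 20 sets. Mouse WT11 was high in Reg2 (9.88) and Reg3b (7.68) and low in Ereg (6.06) and Phlda1 (6.68). Mouse TG631 was high in Reg1 (10.45) and Reg3d (5.69) and low in Rdh18-ps (5.94). Mouse WT10 was high in Zbtb16 (10.18), Fkbp5 (10.22) and Lcn2 (8.61). Mouse WT9 was low in Cyp2f2 (9.70) and Hoxd11 (6.42), and TG29 was high in Hoxd11 (8.19).

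The genotype effect differed between DSS-treated and untreated colon by the test of that difference (limma, adjusted p under 0.05) in 11 of the named genes. In all 11 transgenic mice were lower without DSS and at or above wild-type with it. Of all 31 genes called by this test 30 were lower in untreated transgenic mice, so that direction is not particular to the named genes. The named genes were also chosen in part by a small p in untreated colon. The DSS effect minus the untreated effect was 1.19 in Per2 (0.07 against -1.12), 0.96 in Tef (0.04 against -0.92), 2.03 in Ciart (0.12 against -1.91), 1.48 in Usp2 (0.25 against -1.23) and 2.20 in Dbp (0.36 against -1.84). It was 1.65 in Per3 (0.57 against -1.07), 2.35 in Kyat1 (0.77 against -1.58), 1.84 in Cbr2 (1.25 against -0.59), 1.93 in Gsta3 (0.81 against -1.12), 1.34 in Gstm1 (0.89 against -0.46) and 1.66 in Wfdc2 (0.89 against -0.77).

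Probe sets outside the gene table that separated the genotypes were those shared by Duxbl1 and Duxbl2 (1.18), by Gsta1, Gsta2, Gm3776 and Gm10639 (-0.80), by Plac9a, Plac9b and Gm9780 (1.11), by Tmem254a, Tmem254b and Tmem254c (1.43), and both unlisted signals, at -4.24 and -1.77.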

How the results depend on the processing

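The 15 calls in untreated colon became 58 with array weights, 23 with all 35 arrays in 1 model, 24 with the within-array SD as a covariate, 4 with the posterior Hox covariate, 9 with the pancreatic covariate, 4 without TG28 and TG31 together and 32 over all 28090 probe sets, a setting added after seeing the data. Some of those 32 probe sets report identical values. Leaving out 1 mouse gave 4 to 20 calls. With array weights all 15 remained called, with all 35 arrays 14, with quantile normalization 9. None of the 15 changed direction in the alternatives run, 25 for each gene except Afm with 24, which the signal filter left out. Of the 95 named genes 16 changed sign in at least 1 of them, none of which was called. For DSS mice the count of 1 became 339 with array weights and 1 to 11 on leaving out 1 mouse (11 without WT55, 4 without TG49, 2 without WT65). The difference of the effects, 31, became 232 with array weights and 0 with the posterior Hox covariate. The cause of these changes was not tested. No paired analysis was possible because the mouse numbers are not shared between the groups compared.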
